A study of Mus musculus with 9 samples.

Results

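The MHC class I antigen presentation genes of AML12 cells were examined in RNA-seq libraries of an *Srrm2* knockdown experiment. AML12 is a hepatocyte line derived from a mouse carrying a human TGF-alpha transgene, and was grown here with insulin, transferrin, selenium and dexamethasone. The 9 libraries comprised 3 labelled control, 3 with *Srrm2* shRNA 1 and 3 with *Srrm2* shRNA 2, the latter 2 groups on day 5 of lentiviral infection. Srrm2 is a scaffold protein of nuclear speckles, the nuclear bodies that hold splicing factors. All libraries came from this single line, and the labels do not say whether replicates were separate cultures. The members were chosen by name: *H2-K1*, *H2-D1*, *H2-T23*, *B2m*, *Tap1*, *Tap2*, *Tapbp*, *Psmb8*, *Psmb9* and *Psmb10*, 10 genes of which 9 are among the 13643 listed in either of 2 deposited tables.

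Class I molecules display peptides from inside the cell to CD8 T cells. The proteasome cuts proteins into peptides, the TAP transporter carries these into the endoplasmic reticulum, and a loading complex places them on a heavy chain paired with beta-2-microglobulin. Interferon and NF-kB signalling raise most genes of this route through the factors that bind their promoters. Hepatocytes carry class I molecules at a low level compared with lymphoid cells.

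The value used for each gene is the authors' mean normalized count, which averages 6 libraries: 3 control and 3 shRNA 1 libraries in one table (the shRNA 1 pool), and 3 control and 3 shRNA 2 libraries in the other (the shRNA 2 pool). Each gene therefore has 1 value per pool, with no value per library, no SD and no replicate error. No level of control cells alone was used, so no change against control is given for any gene, and no difference below was tested. The shRNA 1 pool lists 13424 genes, the shRNA 2 pool 13478, and 13259 are in both. *Srrm2*, the targeted gene, had pooled means of 3428 and 3759, which average control and knockdown cells and so do not check the knockdown. All 9 hepatocyte markers were listed, including *Krt18* at 9848 and 8953 and *Hnf4a* at 1498 and 1624. Their levels differed widely, from *Apob* at 20192 and 22608 to *Apoa1* at 39.4 and 38.9. *Apoa1* lay below the median of all listed genes (147 and 151). None of 5 endothelial markers was listed, 2 of 6 fibroblast and stellate markers were, the higher of them *Des* at 8.03 and 5.67, and so were *Ptprc* (5.30 and 5.47), *Cd68* (25.1 and 29.8) and *Csf1r* (26.2 and 27.3) among the leukocyte markers, whose part in the values of the members was not tested. In RNA from whole cultures, fewer cells of a type and less RNA per cell cannot be told apart.

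Of the 10 members, 8 were listed in both pools, *H2-T23* in the shRNA 2 pool alone and *Psmb9* in neither. A total of 8 members lie on chromosome 17, in and beside the mouse MHC. *B2m* lies on chromosome 2 and *Psmb10* on chromosome 8. The coordinates are those of mm9 (NCBIM37) with GENCODE M1 genes, the annotation on which the reads were counted.

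The promoters of the class I chains are shown first, because the chains held most of the members' RNA and carry motifs through which NF-kB and interferon are known to act. RefSeq promoter windows, from 250 bases before to 50 after the gene start on GRCm38.p6, were given for 9 of the 10 members, and *Tap2* had none. Each matched NCBIM37 exactly at 1 place. Both the *H2-K1* and the *H2-D1* promoter held GGGATTCCC, a form of the NF-kB motif. An interferon response motif, GAANNGAAA, followed it, here on the reverse strand. The stretch holding both lies on chr17:34137374-34137402 (minus strand) for *H2-K1* and on chr17:35399869-35399897 (plus strand) for *H2-D1*, both in NCBIM37, where the *H2-D1* stretch falls in an exon of a longer GENCODE M1 model. The capitals mark these motifs alone.
H2-K1: GGGATTCCCcatctccacagTTTCACTTC
H2-D1: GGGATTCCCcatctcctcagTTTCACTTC

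These 29 bases were identical at 28 positions. The 1 substitution, written from *H2-K1* to *H2-D1* and counted from 1 at the 5′ end, was A17T, between the motifs. In *B2m*, the stretch from position -144 to position -44 relative to the start, on chr2:121973279-121973379 (plus strand, NCBIM37, outside any GENCODE M1 exon), held the interferon response motif with its repeats in the other order, GAAANNGAA, and an inverted CCAAT box, which are in capitals.
B2m: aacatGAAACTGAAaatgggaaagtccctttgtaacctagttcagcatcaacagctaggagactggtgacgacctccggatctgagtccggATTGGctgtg

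Both strands of 32851 RefSeq windows were searched for comparison. The motif forms were chosen by hand, and no count below was tested against its share. GGGATTCCC was in 0.353% of the windows and in 2 of the 9 member windows, those of *H2-K1* and *H2-D1*. These 2 stretches are near copies, identical at 28 of 29 bases, so they are not independent finds. GAANNGAAA was in 7.52% and in the same 2 members, and GAAANNGAA in 8.56% and in *B2m* and *H2-T23*. CCAAT was in 37.4% of all windows and in 7 of 9 members, with *Psmb8* and *Psmb10* lacking it. The CCAAT counted for *Tap1* and that counted for *Psmb9* are the same site, because their windows overlap. The interferon-gamma activated site TTCNNNGAA was in 8.3% and in *Psmb8* alone of the members. The motifs are given as letters in these windows, with no measure of binding. NF-kB sites of other forms than GGGATTCCC were not searched, in *B2m* or elsewhere, so no member was shown to lack one.

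The class I chains held most of the RNA of the set. *B2m* (ENSMUSG00000060802.8, chromosome 2, 121973422 to 121978819, plus strand), the light chain shared by all class I molecules, had pooled means of 2003 in the shRNA 1 pool and 2152 in the shRNA 2 pool. Its exons are short, at 860 bases, and its pooled mean per kilobase of exon was 2329 and 2503, which ranked 64 and 63 among all listed genes. It was thus among the most abundant RNAs of these cells in both pools.
*H2-D1* (ENSMUSG00000073411.4, chromosome 17, 35399675 to 35404444, plus strand), a classical heavy chain that presents peptide to CD8 T cells, had pooled means of 1066 and 1077. *H2-K1* (ENSMUSG00000061232.8, chromosome 17, 34132962 to 34137278, minus strand), the other classical heavy chain in the table, had 638 and 689. Per kilobase of exon, *H2-D1* had 412 and 416, and *H2-K1* 245 and 264, so *H2-D1* was 1.68 times *H2-K1* in the shRNA 1 pool and 1.58 times in the shRNA 2 pool. *B2m* per kilobase was 3.55 and 3.68 times the sum of the 2 heavy chains.
Together *B2m*, *H2-D1* and *H2-K1* made up 83.2% and 80.8% of the members' summed pooled means, and the members as a whole made up 0.0725% and 0.0759% of those of all listed genes.

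Heavy chain genes resemble each other, and the authors kept uniquely mapped pairs alone. Of the 50-base words in the longest coding transcript of *H2-K1*, 8.87% occurred in a coding transcript of another gene, against 14.3% for *H2-D1*, 14.8% for *H2-T23* and none for *B2m*. At 100 bases the shares were 4.64% for *H2-D1*, mostly with *H2-Q2*, and 4.44% for *H2-T23*, and *H2-K1* shared none. Reads from such stretches can be lost or split, so the ratio of *H2-D1* to *H2-K1* is uncertain to that extent. Class I genes also differ between mouse strains, and the effect of differences between AML12 and the reference strain on mapping was not tested.
*H2-T23* (ENSMUSG00000067212.7, chromosome 17, 36166718 to 36169800, minus strand) encodes Qa-1, a non-classical heavy chain recognised by NK and T cell receptors. It had a pooled mean of 2.28 in the shRNA 2 pool, 0.789 per kilobase, near the lowest value listed there (1.92). It was not listed in the shRNA 1 pool, whose lowest listed mean was 1.56, so its level there was not analysed here.

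**Figure D1:**
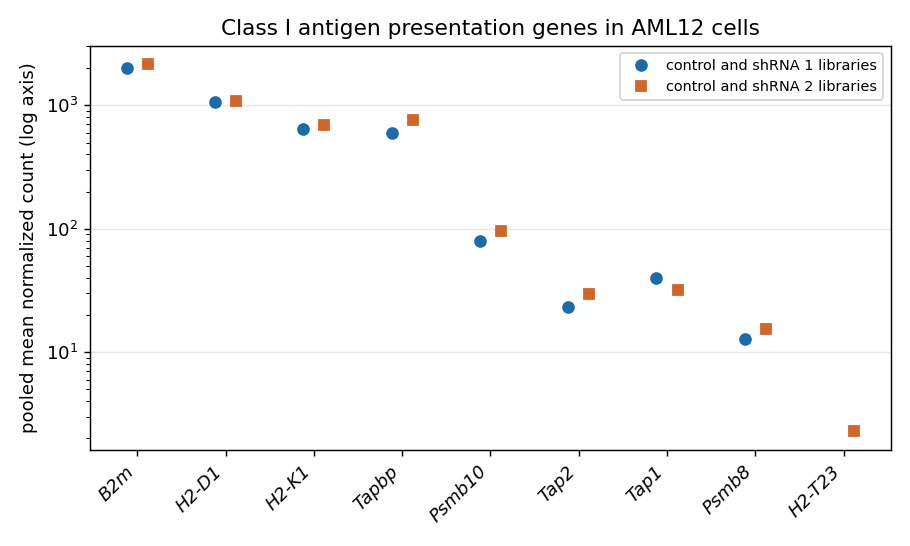
Pooled mean normalized count (log axis) of each listed member, as circles for the mean over control and shRNA 1 libraries and squares for the mean over control and shRNA 2 libraries; each point is 1 authors' mean with no error. *B2m* is highest at 2003 and 2152, *Psmb8* is lowest of the 8 members listed in both pools at 12.8 and 15.3, and *H2-T23* has a value of 2.28 in the shRNA 2 pool alone.

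The genes that bring peptides to the heavy chains split widely in level. *Tapbp* (ENSMUSG00000024308.7, chromosome 17, 34052844 to 34066235, plus strand) encodes tapasin, which bridges the heavy chain and the TAP transporter. It had pooled means of 593 and 757, or 180 and 230 per kilobase. *Tap1* (ENSMUSG00000037321.9, chromosome 17, 34324498 to 34334170, plus strand) and *Tap2* (ENSMUSG00000024339.6, chromosome 17, 34340472 to 34353266, plus strand) encode the 2 subunits of the transporter.
*Tap1* had pooled means of 39.9 in the shRNA 1 pool and 32.0 in the shRNA 2 pool. *Tap2* had 23.3 and 29.3. Both lay in the lower part of all listed genes per kilobase, *Tap1* at percentiles 19.3 and 16.6 and *Tap2* at 17.6 and 19.6.
Per kilobase *Tapbp* was 24.7 and 39.3 times *Tap1*, and 29.2 and 29.6 times *Tap2*. The order of the transporter genes changed between the pools: *Tap1* per kilobase was 1.18 times *Tap2* in the shRNA 1 pool and 0.753 times in the shRNA 2 pool. With no spread to set it against, this order cannot be called a difference.

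The immunoproteasome subunits, which replace the constitutive catalytic subunits under interferon and change which peptides are cut, differed in level. Per kilobase *Psmb8* lay at percentiles 14.8 and 16.3 of all listed genes and *Psmb10* at 60.0 and 64.2. *Psmb8* (ENSMUSG00000024338.8, chromosome 17, 34334666 to 34338399, plus strand) had pooled means of 12.8 and 15.3. *Psmb5*, the constitutive subunit whose place it takes, had 186 and 212. Per kilobase *Psmb8* was 0.0231 times *Psmb5* in the shRNA 1 pool and 0.0243 times in the shRNA 2 pool. This ratio depends on the length used, and was 0.0366 and 0.0386 over the longest coding transcripts and 0.0684 and 0.0722 with no division by length.
*Psmb10* (ENSMUSG00000031897.8, chromosome 8, 108459628 to 108462292, minus strand) had pooled means of 79.3 and 96.3. Its constitutive counterpart *Psmb7* had 401 and 424. Per kilobase *Psmb10* was 0.189 and 0.217 times *Psmb7*, and 13.4 and 13.6 times *Psmb8*.
The 2 measured immunoproteasome genes were thus both below their constitutive counterparts in each pool, *Psmb8* by more than *Psmb10* under each of these lengths. Since counts are never negative, the mean of 1 of 2 groups of equal size cannot exceed 2 times the pooled mean, which places the mean of control cells at no more than 25.5 normalized counts for *Psmb8* and 46.6 for *Tap2*, on the scale of the shRNA 1 pool. The lower bound is 0 for each.

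*Psmb9*, the third immunoproteasome subunit, had no value. GENCODE M1 holds 2 gene models of that name on the minus strand of chromosome 17, ENSMUSG00000024337.8 from 34318932 to 34324697 and ENSMUSG00000092299.1 from 34318933 to 34324709. They cover nearly the same exons, with 99.97% of the exon bases of the first on another gene of the strand and 99.7% of those of the second. A counter in its default mode leaves out a read that falls on 2 genes, though the mode used is not given in the sources used here. Of 126 protein-coding gene models with at least 95% of their exon bases on another gene of the same strand, 1 was listed in either pool (0.794%), against 12115 of 21170 models with no shared base (57.2%). The cause of the missing value of *Psmb9* was not tested, and its RNA level was not read from it. Its constitutive counterpart *Psmb6* had pooled means of 388 and 456.
*Psmb9*, *Tap1*, *Psmb8* and *Tap2* lie in this order within 34335 bases. By RefSeq windows placed on NCBIM37, the starts of *Psmb9* and *Tap1* face away from each other 226 bases apart, and their promoter windows share 275 bases. No other member shared more than 1.85% of its exon bases with a gene of the same strand, the highest being *Tapbp* with *Zbtb22*.

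**Figure D2:**
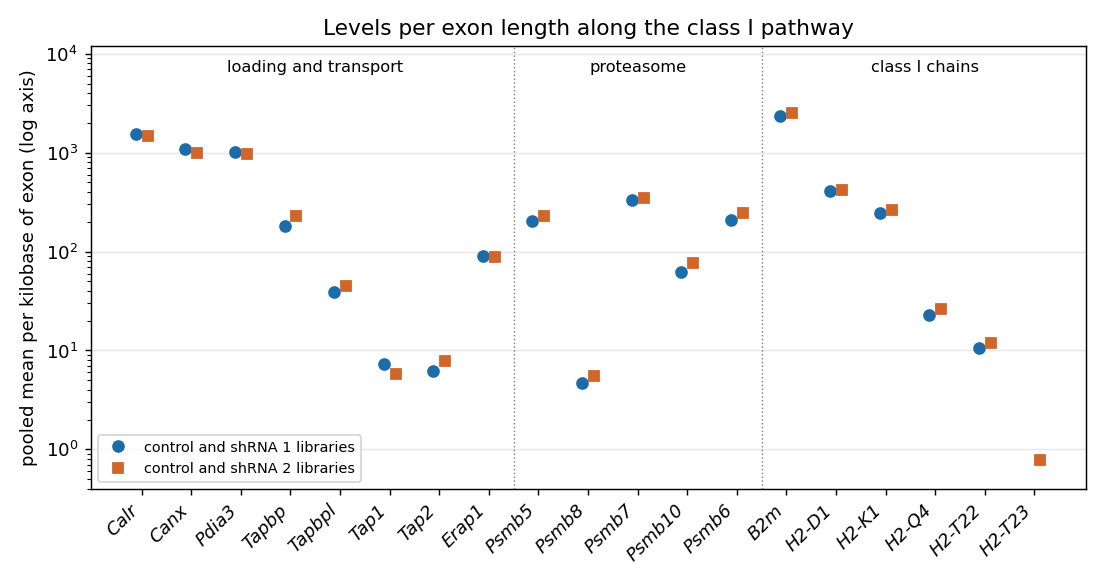
Pooled mean normalized count per kilobase of merged exon (log axis) for members and their fixed partners, as circles for control and shRNA 1 libraries and squares for control and shRNA 2 libraries, with no error available. *Psmb8* (4.66 and 5.58) lies below *Psmb5* (202 and 230), and *Tap1* (7.28 and 5.84) and *Tap2* (6.16 and 7.76) lie below *Tapbp* (180 and 230) and *Calr* (1553 and 1459).

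The 2 pools were then set side by side. If both averaged the same 3 control libraries, as the series' design implies, a gene whose pooled means differ after scaling differed between the 2 hairpins. The labels tie the 3 control libraries to the shRNA 1 table, but 2 of them name tables of other hairpins in place of that of shRNA 2, so the sharing of all 3 is an assumption. The ratio of the shRNA 2 to the shRNA 1 pooled mean was centred on the median of the 11451 genes with a pooled mean of at least 10 in both, a scale of 1.05 between the tables. Because the shared control dilutes it, this ratio understates the fold between the hairpins.
Of the 8 members in both pools, *Tapbp* was more than 1.2-fold higher in the shRNA 2 pool and *Tap1* more than 1.2-fold lower, while 6 lay between. Among all 11451 genes, 6.18% were past 1.2-fold higher and 6.82% past it lower, and 1 of 8 members on each side is too few to set apart from these shares. The members' median centred log2 ratio was 0.11, against 0 for all genes by construction, and the quartiles of all genes were -0.10 and 0.10.

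*Tap1* went furthest, with a centred log2 ratio of -0.39, or 1.31-fold higher in the shRNA 1 pool, beyond 94.8% of genes in size. Under the shared control this corresponds to a mean 18.8 normalized counts higher with shRNA 1 than with shRNA 2. *Tapbp* had 0.28 (88.4% of genes), or 254 normalized counts more with shRNA 2. *Tap2* had 0.26, just inside 1.2-fold, and 9.26 normalized counts more with shRNA 2.
*Tap1* thus lay on the opposite side from its partner *Tap2* and from *Psmb8* between them, which had 0.19. *Psmb10* had 0.21. The immunoproteasome genes were both higher in the shRNA 2 pool, by 3.56 and 24.6 normalized counts for *Psmb8* and *Psmb10*, and stood inside 1.2-fold.
The class I chains differed least. *H2-K1* had a centred log2 ratio of 0.04 and *B2m* 0.03, and *H2-D1* had -0.06, which became 0.01 without centring. With *Tapbp*, these 3 genes had the highest pooled means of the members, and *Psmb8*, *Tap2* and *Tap1* the lowest of the 8 in both pools. The part of counting error in the ratios was not tested.

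**Figure D3:**
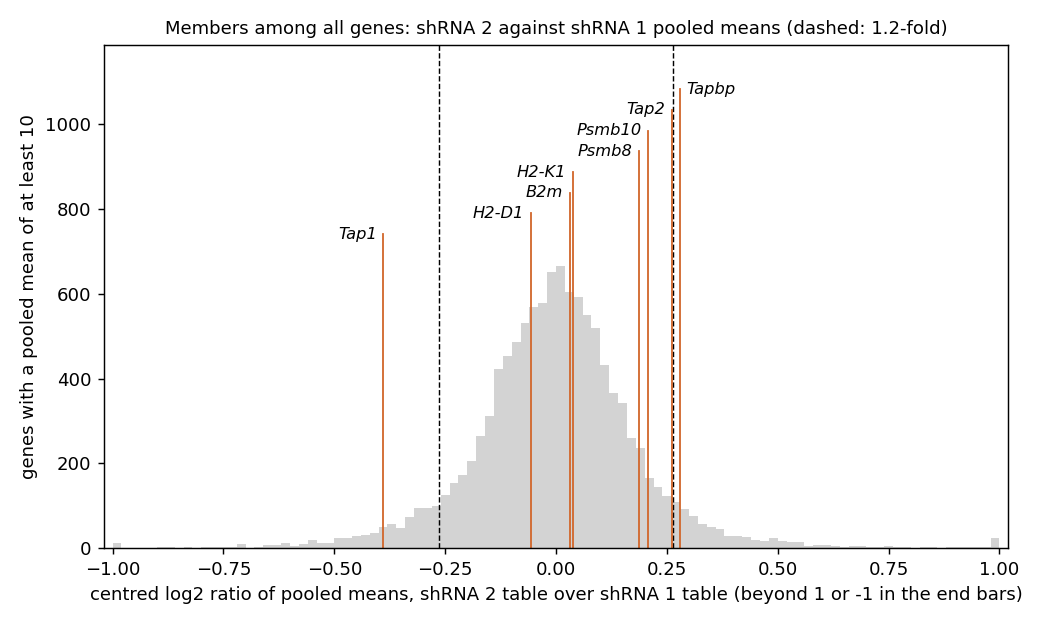
Histogram of the centred log2 ratio of pooled means, shRNA 2 table over shRNA 1 table, for 11451 genes (values beyond 1 or -1 are in the end bars), with each member as a line whose height has no meaning. *Tap1* (-0.39) and *Tapbp* (0.28) lie outside the dashed lines at 1.2-fold, and *H2-D1* (-0.06), *B2m* (0.03) and *H2-K1* (0.04) lie near 0.

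The other genes of the pathway were taken from fixed lists. Among all 11451 genes, 6.18% were past 1.2-fold higher and 6.82% lower. No count in a list was tested against these shares. All 8 genes of peptide loading and trimming were listed, and none was past 1.2-fold. The endoplasmic reticulum chaperones led, with *Calr*, the calreticulin of the loading complex, at 1553 and 1459 per kilobase and *Hspa5* at 1400 and 1248, while *Tapbpl*, a tapasin relative that edits peptides, had 39.0 and 44.8 and the trimming peptidase *Erap1* had 91.0 and 87.7. Their centred log2 ratios ran from -0.24 to 0.13, with 7 of 8 below 0 and a median of -0.15. *Tapbp* at 0.28 thus stood above the whole range of that list. Of the members, 6 of 8 were above 0, among them *H2-K1* (0.04) and *B2m* (0.03) close to it. The median of all 11451 genes is 0 by construction, and these sign counts were not tested. All 3 constitutive subunits were listed, none past 1.2-fold. Of the proteasome activators and the assembly factor *Pomp*, 5 of 5 were listed and none was past 1.2-fold. *Psme2*, an interferon-induced activator subunit, went furthest at 0.22, then *Psme3* at 0.12, while *Psme1*, the partner of *Psme2* in the same activator, had -0.06, *Psme4* -0.04 and *Pomp* 0.0055.
Among 13 regulators of class I genes, all listed, 2 were past 1.2-fold higher in the shRNA 2 pool and 1 lower. The shares of all 11451 genes were 6.18% and 6.82%, and these counts were not tested against them. *Nlrc5*, the class I transactivator, had pooled means of 47.1 and 38.4 and a centred log2 ratio of -0.37. GENCODE M1 types its gene model as lincRNA. *Nfya*, a subunit of the factor that binds CCAAT boxes, had 290 and 470 (0.62), and *Rfx5*, which acts with *Nlrc5* at class I promoters, 204 and 259 (0.27). Per kilobase *Nlrc5* was the lowest of the list at 6.45 and 5.26, followed by *Rfxap* at 16.4 and 14.8, and *Rela* (318 and 379) and *Nfkb1* (239 and 279), the NF-kB subunits, were the highest.
Of the 8 interferon receptor and kinase genes, 7 were listed in both pools and none was past 1.2-fold. *Jak2* (338 and 342 per kilobase) and *Ifngr1*, a chain of the interferon-gamma receptor (287 and 332), were the highest, and *Ifnar2* had 36.2 and 43.0. *Socs1*, a feedback inhibitor, was listed in the shRNA 1 pool alone, at a pooled mean of 2.08.

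Beyond the members, 12 of 23 other class I and class I-like genes were listed in both pools, and all were below *H2-K1* per kilobase. Listed in neither pool were 10, of which 2 were absent from GENCODE M1. Another had 98.5% of its exon bases on a gene of the same strand. A missing value was therefore not read as an absence of RNA. *Mr1*, which presents vitamin B metabolites, was highest in both pools at 80.6 and 78.3. *Fcgrt*, the neonatal Fc receptor, came next in the shRNA 1 pool at 35.2, with 37.2 in the shRNA 2 pool, where *H2-M2* at 52.9 stood above it. *H2-Q2* (2.23 and 1.78) and *H2-Q7* (4.40 and 5.19) were lowest in the shRNA 1 pool. In this list 2 genes were past 1.2-fold higher and 1 lower, against 6.18% and 6.82% of all 11451 genes. Past 1.2-fold, *H2-M2*, a non-classical heavy chain, had pooled means of 42.5 and 82.5 (centred log2 ratio 0.89), *Azgp1*, a secreted class I-like protein, 21.0 and 27.2 (0.30) and *H2-Q2* 6.39 and 5.08 (-0.40).
Class II genes present extracellular peptides in professional antigen-presenting cells. Of these, 7 of 10 had no value in either pool, among them the chain genes *H2-Aa*, *H2-Ab1* and *H2-Eb1* and the transactivator *Ciita*. Of all protein-coding models with no shared exon base, 57.2% were listed in either pool, and the class II count was not tested against that share. *Cd74*, the invariant chain, had pooled means of 15.3 and 33.2 (1.04), *H2-DMb1* 3.48 and 6.54 (0.84) and *H2-DMa* 13.6 and 15.9 (0.15). *Cd74* and *H2-M2* thus differed more between the pools than any of the 8 members, with no error to set beside them. *H2-Q2* and *H2-DMb1* had pooled means under 10 and so lay outside the 11451 genes of the background.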

How the data were processed

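RNA was sequenced from 9 AML12 libraries, grouped by their titles. By the study's methods and the submitters' processing notes, the authors aligned read pairs to mm9 by TopHat2, discarded pairs that were discordant or mapped to several places, assigned the rest to GENCODE M1 by HTSeq and used DESeq2 1.8.2. The deposited tables give for each gene the authors' mean normalized count over the libraries of a comparison, treated here as a signal (counts divided by size factors and averaged). Their other 5 value columns hold the authors' own comparisons (log2 fold change, standard error, statistic, p-value and adjusted p-value) and were not used. Depth per library is unknown, so no interval or floor is given. Genes filtered out by the authors have no value.

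All gene identifiers matched GENCODE M1. Pooled means were divided by merged exon length, and ratios of the 2 tables were centred on the median and called past 1.2-fold, with no test. The ratio was checked on simulated data with a known scale. The changes simulated were far larger than 1.2-fold and had no spread between cultures. That check therefore does not bear on the calls at 1.2-fold. Members and lists were chosen with earlier results of these data known. Named were all members, *Srrm2*, *Psmb5*, *Psmb6*, *Psmb7*, and of each list every gene up to 6 listed, or the 2 highest and 2 lowest per kilobase in the shRNA 1 pool and those past 1.2-fold. Marker genes of hepatocytes and other cell types were named after their values were seen, as were the unlisted class II genes, *H2-Q2* as a sharer of sequence and *Zbtb22*. Alternatives were other centrings, folds, lengths, gene sets and a pseudocount. Python 3.11.15, numpy 2.4.6, pandas 2.3.3 and matplotlib 3.10.9 were used.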

Additional observations from a re-analysis of the deposited data

How the results depend on the processing

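The number of members past 1.2-fold, 2 as reported, was 4 without centring (*Tap2* and *Psmb10* added), 5 at a minimum of 1.1-fold and 0 at 1.5-fold, and *Tap1* and *Tapbp* were among them under every centring and with a pseudocount of 1. *Tap2* also passed when centred on the summed pooled means or on genes of at least 100. The shares of all 11451 genes, 6.18% higher and 6.82% lower, belong to the reported setting alone. No share of all genes is given for the other settings, so their counts are not read as a result about the members. The members' median log2 ratio stayed within 0.1 of 0.11 throughout, with 0.19 the furthest, without centring. The median percentile of the 8 members' pooled means, 59.5 and 62.0 in the shRNA 1 and shRNA 2 pools, was 53.0 and 55.9 among genes of at least 10, and 73.0 and 76.7 per kilobase (chosen after seeing the data). Their median per kilobase, 121 and 153, was 134 and 169 over the longest coding transcript and 336 and 393 without division by length. Per kilobase *Psmb8* was 0.0231 and 0.0243 times *Psmb5*, 0.0366 and 0.0386 over coding transcripts, and 0.0684 and 0.0722 without length. No paired analysis was possible because the tables hold 1 mean over 6 libraries, and for that reason no replicate was left out. Sampling depth per library is unknown, so ratios at low pooled means are uncertain to an extent that was not measured.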
